A study of Mus musculus with 3 samples.

Results

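Netrin and repulsive guidance genes were examined as chromatin accessibility in long-term haematopoietic stem cells (LT-HSCs). The list held 10 genes of 32052 counted, 21910 of them protein-coding: the receptors Neo1, Dcc, Unc5a, Unc5b, Unc5c and Unc5d and the ligands Ntn1, Rgma, Rgmb and Bmp6. Members were chosen by pathway and by measured values of these same cells, with Neo1 and Unc5d in first place. Those values were fragment levels over promoters, intronic open sites and whole genes, overall and by CD61 and CD357. They describe the genes below and support nothing by themselves. All 10 were found in the gene annotation and all had over 1000 fragments, the number required for the deeper comparisons.

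The cells were LT-HSCs from bone marrow of wild-type C57BL/6 females, 24 months of age, stained with fluorescent and oligo-tagged antibodies and isolated by FACS after c-Kit enrichment. A DOGMA-seq run, which reads open chromatin (ATAC), mRNA and antibody tags from the same cells, gave 1 library of each kind from 1 pool of cells, so there was no second age, no treated group and no replicate. No test between conditions was therefore possible, and every interval given is a 95% interval for counting error only. Cells were compared by the counts of antibodies that the study used for sorting HSC subtypes: CD61, an integrin subunit of platelets and megakaryocytes, high in platelet-biased PLT-HSCs, and CD357, a receptor of the TNF family also called GITR, low in PLT-HSCs and high in multilineage MUL-HSCs.

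Netrins are secreted laminin-related proteins that steer growing axons and migrating cells. DCC and neogenin, the product of Neo1, are paralogous receptors that mostly mediate attraction, whereas the UNC5 receptors mediate repulsion and, like DCC, are known as dependence receptors that trigger cell death when no ligand is bound. Neogenin also binds the membrane-anchored repulsive guidance molecules (RGMs), which act as co-receptors for bone morphogenetic proteins (BMPs) such as BMP6, and neogenin and netrin 1 have been studied in HSC maintenance and ageing.

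The antibody table held 3724 barcodes, of which 3629 carried at least 10 tags and were kept, and all of these had been called cells by the pipeline. They held 38498362 nuclear fragments, with a median of 10287 per cell and a range of 3853 to 45069. LT-HSC and megakaryocyte markers lay above most genes, and markers of mature lineages mostly below. The 12 LT-HSC markers had a median level of 1.35 FPKM, here fragments per kb of gene per 1000000 nuclear fragments, and 10 of them lay above the median of protein-coding genes, 0.822. Megakaryocyte markers were higher, with a median of 6.46 and 5 of 5 above that median. Markers of other lineages were lower, with medians of 0.521 for erythroid (2 of 5 above), 0.455 for myeloid (1 of 5), 0.514 for B cell (0 of 4) and 0.262 for T cell genes (0 of 4). Neuron markers had a median of 0.358, with 3 of 10 above, and endothelial and stromal markers a median of 1.24, with 3 of 5 above.

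A single barcode stood apart from the rest. Only 25.3% of its fragments fell in peak regions, against a median of 67.6% and a next lowest value of 48.7%, and its 45069 fragments were the most of any cell. It held 43 of the 1136 fragments over Unc5d, where the next cell held 6, and 28 of the 1474 over Dcc, where the next held 8, but none of those over Neo1. It was kept, because the choice of cells did not use this share, and the whole-gene ratios of Unc5d and Dcc between groups of cells are given with and without it. Doublets were not removed. An excess of overlapping fragments, a possible sign of more than a single cell per droplet, marked 264 cells, that barcode among them.

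Neo1, the neogenin receptor gene at chr9:58874687-59036441 on the minus strand (mm10), was the most accessible of the receptors outside the Unc5a and Unc5b pair. Its gene body with 2 kb upstream held 2905 fragments, a level of 0.461 FPKM (0.444 to 0.478). This level lay at the 37.6th percentile of protein-coding genes. Its promoter, the start site with 1 kb on each side, held 887 fragments and lay higher, at the 67.5th percentile. At least 1 fragment over the gene was found in 50.2% of cells, and 60.2% of its fragments fell in 8 open sites. An open site was a stretch of 500 bp windows with at least 4 times the insertions of both the genome and the surrounding 10 kb on each side. The strongest Neo1 site was the promoter, with 810 insertions in its summit window, followed by a site in intron 7 of 29 exons at chr9:58941701-58942800, with 197 fragments. The sequences of this intronic summit and of the nearest exon-free bases before the gene are shown because the intronic site was the strongest outside the promoter and is compared by CD61 further on. They are given in the gene's direction from the RefSeq sequence of GRCm38.p6. Capitals mark matches to the ETS letters GGAAGT, read on either strand, in the intronic site and CG dinucleotides in the upstream stretch.
Neo1 intron 7, chr9:58942001-58942300, minus strand: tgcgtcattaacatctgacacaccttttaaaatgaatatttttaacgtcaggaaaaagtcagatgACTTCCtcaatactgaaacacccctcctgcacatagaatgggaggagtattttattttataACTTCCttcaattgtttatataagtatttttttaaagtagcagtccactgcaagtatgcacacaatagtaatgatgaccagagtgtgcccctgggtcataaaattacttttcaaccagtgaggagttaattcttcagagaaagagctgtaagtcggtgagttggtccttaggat
Neo1 upstream, chr9:59036615-59036814, minus strand: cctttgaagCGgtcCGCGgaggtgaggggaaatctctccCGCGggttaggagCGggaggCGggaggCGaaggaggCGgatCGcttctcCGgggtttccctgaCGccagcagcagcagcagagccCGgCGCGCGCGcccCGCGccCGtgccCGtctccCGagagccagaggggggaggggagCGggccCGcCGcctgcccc
The upstream stretch ends 174 bases before the start, has 25 CG dinucleotides and 75% G and C, while the intronic site has 3 and 36.7%.

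Unc5d, which encodes a netrin receptor of the UNC5 family, lies at chr8:28646717-29219636 on the minus strand and is among the longest of the 10 genes. It held 1136 fragments, a level of 0.0513 FPKM (0.0484 to 0.0544), at the 16.5th percentile of protein-coding genes. Its promoter held 255 fragments, at the 43.7th percentile. Per kb the gene was thus among the least accessible, while its promoter stood nearer the middle of all genes. A fragment was found in 21.7% of cells, and 40.2% of fragments fell in 4 open sites. These were the promoter, with 345 summit insertions, and sites in intron 16, intron 13 and intron 1 of the 18 exons, with 174, 88 and 61. The site in intron 16, at chr8:28672901-28674000, lay 546185 bp from the start, near the end of the gene. It held 115 fragments in 102 cells (2.81%), and its summit was at the 37.4th percentile of the 59340 open sites of the genome. It is shown because its accessibility differed most with CD357 among the sites of the 10 genes, as described further on. Capitals mark a match to the RUNX letters TGTGGT on the other strand in the intronic site, and CG dinucleotides in the upstream stretch.
Unc5d intron 16, chr8:28673301-28673600, minus strand: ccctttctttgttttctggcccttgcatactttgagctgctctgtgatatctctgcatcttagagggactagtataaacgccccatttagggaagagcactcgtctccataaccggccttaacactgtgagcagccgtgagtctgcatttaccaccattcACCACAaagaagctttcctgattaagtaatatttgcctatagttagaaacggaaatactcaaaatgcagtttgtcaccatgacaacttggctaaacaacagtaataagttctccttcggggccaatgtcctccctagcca
Unc5d upstream, chr8:29219672-29219871, minus strand: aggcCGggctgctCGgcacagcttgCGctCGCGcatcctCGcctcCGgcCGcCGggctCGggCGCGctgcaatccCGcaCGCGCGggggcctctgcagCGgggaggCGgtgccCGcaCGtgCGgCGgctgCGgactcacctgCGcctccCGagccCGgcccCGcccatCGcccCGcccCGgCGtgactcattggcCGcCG
The upstream stretch ends 36 bases before the start and holds 33 CG dinucleotides with 80.0% G and C, more than the 71.5% of Unc5b given next. It also holds a match to the AP-1 letters TGANTCA.

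Unc5b and Unc5a were the most accessible receptors. Unc5b, at chr10:60762593-60831581 on the minus strand and known for its role in endothelial guidance, held 4034 fragments, a level of 1.48 FPKM (1.43 to 1.52) at the 66.1st percentile. Its promoter held 1590 fragments, the most of the 10 genes, at the 85.0th percentile, and the promoter site, with 2159 summit insertions, was at the 94.6th percentile of all open sites. The stretch just before it is shown beside that of Unc5d for this reason, with CG dinucleotides in capitals, of which it has 22.
Unc5b upstream, chr10:60831582-60831781, minus strand: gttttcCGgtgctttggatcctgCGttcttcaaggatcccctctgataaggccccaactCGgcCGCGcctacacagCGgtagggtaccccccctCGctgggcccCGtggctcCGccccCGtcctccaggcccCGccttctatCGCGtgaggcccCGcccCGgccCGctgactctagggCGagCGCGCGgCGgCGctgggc
Unc5a, a repulsive netrin receptor gene at chr13:54949411-55006018 on the plus strand, held 2794 fragments at a level of 1.24 (1.19 to 1.29), the 61.2nd percentile. It had a promoter site of 772 insertions and a site in intron 1, 39040 bp from the start, of 789. Its interval overlaps the gene Hk3, so some fragments may belong to that gene.

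Unc5c and Dcc were long and little accessible. Unc5c, a receptor gene of the same family at chr3:141465216-141834924 on the plus strand, held 2236 fragments, a level of 0.156 (0.150 to 0.163) at the 24.3rd percentile. Its strongest site was not the promoter but a site in intron 7 of 17 exons, 313435 bp from the start, with 673 insertions and 459 fragments in 11.3% of cells. This site is shown because it, and not the promoter, was the strongest of its gene, with a GATA match (AGATAA, other strand) and an ETS match in capitals.
Unc5c intron 7, chr3:141778501-141778800, plus strand: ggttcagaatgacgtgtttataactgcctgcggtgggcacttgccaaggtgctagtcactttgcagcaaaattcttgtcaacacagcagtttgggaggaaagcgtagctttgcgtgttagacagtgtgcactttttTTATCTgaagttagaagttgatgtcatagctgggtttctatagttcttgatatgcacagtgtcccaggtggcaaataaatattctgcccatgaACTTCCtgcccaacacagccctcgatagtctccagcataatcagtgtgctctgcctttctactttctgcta

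Dcc, the netrin receptor named for its loss in colorectal cancer, at chr18:71253634-72351069 on the minus strand, held 1474 fragments, the lowest level of the 10 at 0.0348 (0.0331 to 0.0366), the 14.2nd percentile. Its promoter held only 40 fragments, at the 30.8th percentile, and no open site lay there. Even so, Dcc had a site in intron 27, 1073418 bp from the start, with 349 fragments in 8.62% of cells and 491 insertions, more than the Unc5d promoter. Dcc was the only member without an open promoter site by the rule used.

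Among the ligands, Rgmb, at chr17:15803188-15831039 on the minus strand and encoding an RGM that binds BMPs, had the highest level of all members at 2.38 FPKM (2.29 to 2.47), the 78.4th percentile, from 2733 fragments. Its strongest site, with 1185 insertions, lay 4488 bp inside the gene and 9 bp from another annotated start. Rgma, which encodes a ligand of neogenin and lies at chr7:73375509-73419899 on the plus strand, had a level of 1.19 (1.14 to 1.24) at the 60.2nd percentile, from 2125 fragments, and 70.2% of these fell in 4 open sites. Ntn1, which encodes netrin 1, lies at chr11:68209364-68400823 on the minus strand and held 3122 fragments, a level of 0.419 (0.405 to 0.434) at the 36.1st percentile. Its promoter held 251 fragments, near the number of Unc5d, and its strongest site, with 348 insertions, was 13972 bp inside the gene and 25 bp from another start. Bmp6, at chr13:38345107-38500302 on the plus strand, encodes a BMP with a role in iron regulation. It held 1032 fragments at a level of 0.171 (0.160 to 0.181), the 25th percentile, partly shared with the overlapping gene Txndc5, and its promoter was its main site with 485 insertions.

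The order of levels was Rgmb, Unc5b, Unc5a, Rgma, Neo1, Ntn1, Bmp6, Unc5c, Unc5d and Dcc. The counting intervals of neighbours overlapped for Unc5a with Rgma and for Bmp6 with Unc5c and for no other pair. Of the 10 genes, 4 lay above the protein-coding median of 0.822 by level and 6 above the median of 382 fragments by promoter. The genes with low levels were long: the 1099 kb of Dcc and the 575 kb of Unc5d stood against the 29.9 kb of Rgmb. Levels per kb and promoter counts thus placed the genes differently, and with the promoter alone Unc5b in place of Rgmb was the highest.

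**Figure D1:**
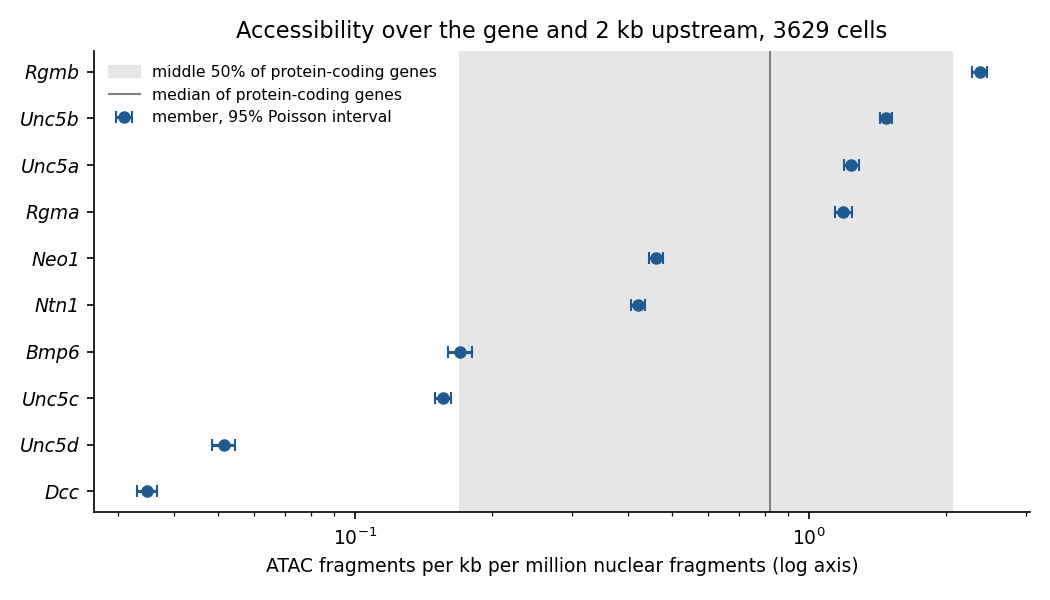
Accessibility of the 10 genes in the 3629 LT-HSCs, in FPKM on a log axis over the gene and 2 kb upstream, with 95% Poisson intervals; the line is the median of protein-coding genes (0.822) and the grey band their middle 50% (0.171 to 2.07). Rgmb (2.38) lies above the band, Unc5c, Unc5d and Dcc below it, and Dcc (0.0348) is lowest.

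The members had 46 open sites in all, of which 37 lay outside promoters and 28 in introns. Their summits were spread over the range of all open sites, and 23 of 46 lay above the median of 245 insertions. Promoter windows of Neo1 and Unc5d were rich in CG dinucleotides and their intronic sites were not. Letters for blood transcription factors were searched on both strands in 300 bases at each summit. RUNX letters (TGTGGT) were found at 13 of the 46 member sites and in 25.1% of all open sites, and ETS letters (GGAAGT) at 12 and in 28.8%. GATA letters (AGATAA) were found at 5 member sites and in 12.8% of all sites, AP-1 letters (TGANTCA) at 5 and in 11.5%, MEIS letters (TGACAG) at 5 and in 19.3%, and the E-box CAGCTG at 3 and in 18.5%. In the 200 bases before the 10 starts, the E-box was found for Dcc, against 10.2% of all promoters, and AP-1 letters for Unc5d, against 4.82%. A match describes the letters in a window and not binding.

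**Figure D2:**
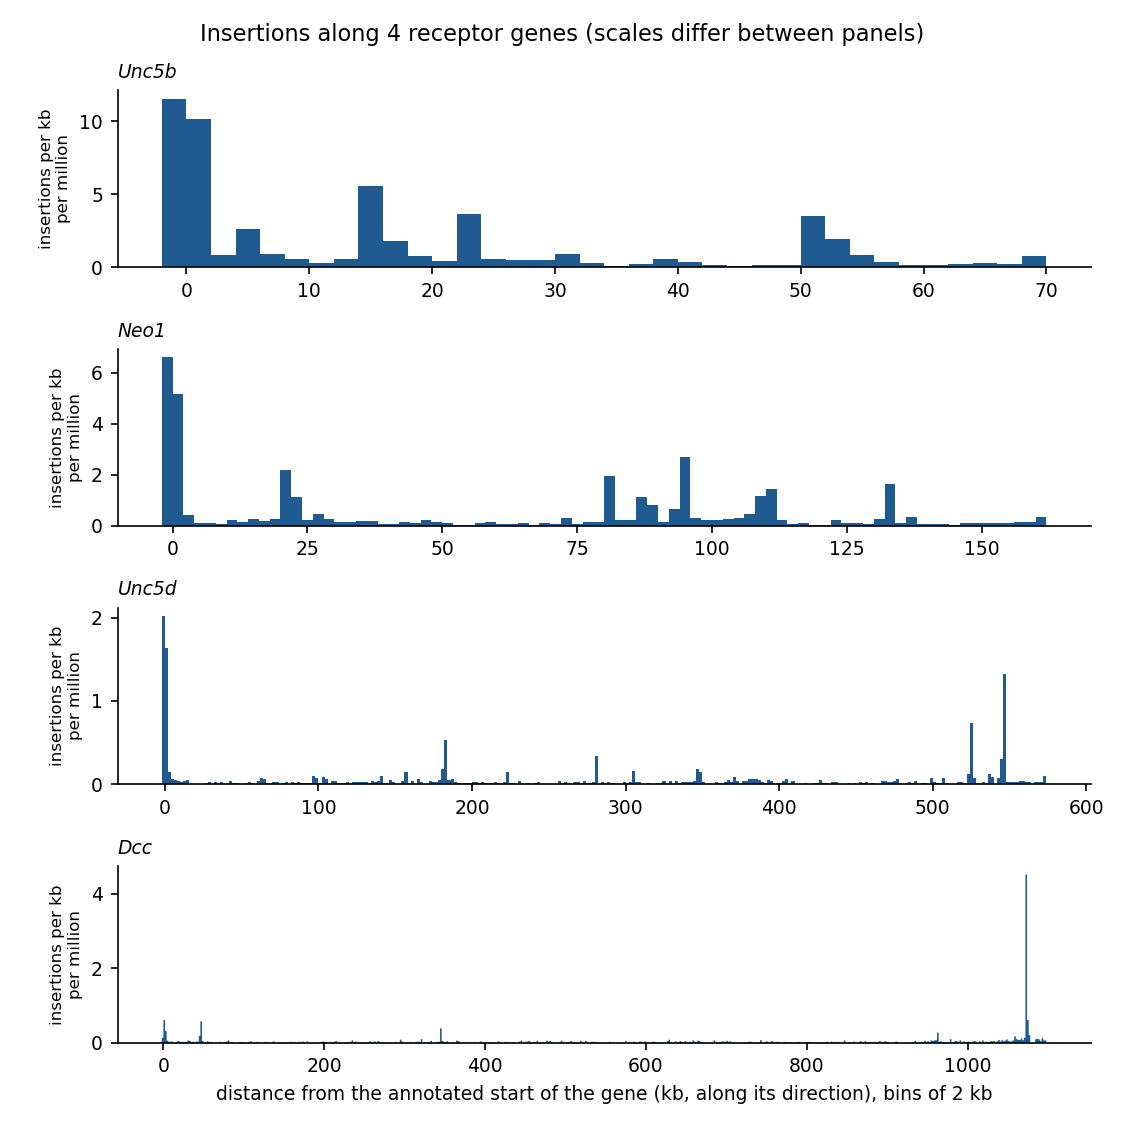
Insertions per kb per 1000000 insertions in 2 kb bins along Unc5b, Neo1, Unc5d and Dcc, by distance from the start site in kb. Unc5b and Neo1 peak at the start, Unc5d has its largest bin there and a smaller one near the end of the gene, and Dcc has its largest far inside the gene.

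By CD61, the question was whether these genes were more open in the cells with more of the platelet-associated antigen. Cells above the median count of 3 (1695 cells) were set against the rest (1934 cells), with similar depth in both, at medians of 10296 and 10268.5 fragments. Tag totals differed, with a median of 33 in CD61-high and 25 in CD61-low cells, or 24 and 20 without CD61 and CD357 tags. None of the 10 genes reached a log2 ratio of 0.32 in either direction, the threshold used here for genes and sites, against 1.46% of the 20510 genes with at least 200 fragments and 0.0233% of those with at least 1000. The members' log2 ratios had a median of 0.04, with 6 above 0 and 4 below, beside a median of 0.00 over all genes. Neo1 and Unc5a were the highest, both at 0.09, in all kept cells. Neo1 held 1427 fragments in CD61-high and 1478 in CD61-low cells, or 78.0 and 73.1 FPM (fragments per 1000000 nuclear fragments of those cells), a ratio with an interval of -0.01 to 0.20, at the 90.3rd percentile of genes with at least 1000 fragments. The Neo1 promoter was at 22.8 and 23.3 FPM, a ratio of -0.03 (-0.22 to 0.16), and its difference from the whole gene was not tested. Unc5d held 550 and 586 fragments, a log2 ratio of 0.05 (-0.12 to 0.22), or 0.16 without the barcode that stood apart, and Dcc was the lowest at -0.08 (-0.23 to 0.07), or -0.03 without it, when Unc5d was the highest and Unc5c the lowest at -0.05. Each of these intervals included 0. The share of cells with an excess of overlapping fragments was 9.97% in CD61-high and 4.91% in CD61-low cells, and without those cells, the barcode that stood apart among them, the ratio was 0.12 (0.01 to 0.23) for Neo1 and 0.18 (0.00 to 0.37) for Unc5d.

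By CD357, Unc5d was less accessible in the cells with more of the antigen. Cells above the median count of 3 (1365 cells) were set against 2264 cells, with median depths of 10333 and 10258 fragments. Tag totals were not alike, with a median of 35 in CD357-high and 26 in CD357-low cells. Without CD61 and CD357 tags the medians were 25 and 21. Unc5d held 391 fragments in CD357-high and 745 in CD357-low cells, or 26.3 and 31.5 FPM. The log2 ratio was -0.26 (-0.44 to -0.08), an interval for counting error alone, and lay at the 0.171th percentile of genes with at least 1000 fragments. Across cells, Unc5d counts varied 1.75 times as much as depth and counting error give, or 1.39 times without the barcode that stood apart. The interval is therefore too narrow. None of the 10 genes reached the threshold of 0.32 on the log2 scale, against 1.76% of genes with at least 200 fragments and 0.0388% of those with at least 1000. The barcode that stood apart has a CD357 count of 5 and so lies on the high side. Without it the Unc5d ratio was -0.42 (-0.61 to -0.24), past the threshold, where 1.74% of genes with at least 200 fragments and 0.0466% of those with at least 1000 were past it, and no gene of the 12887 in the deeper set was lower. With 1136 fragments in all kept cells, Unc5d lies near the floor of 1000 of that set, where counting error is largest. Unc5d had been listed with such ratios known, so its place describes it.

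The Unc5d difference was present in the summed counts of its open sites and, once the barcode was left out, outside them too. Inside them CD357-high cells held 141 fragments and CD357-low cells 316, a log2 ratio of -0.49 (-0.79 to -0.20). These counts include the intron 16 site described further on, with 24 and 91. The promoter site was at -0.26 (-0.65 to 0.12), intron 13 at -0.23 (-1.16 to 0.62) and intron 1 at -0.36 (-1.46 to 0.62). Each of these site intervals included 0, and the sum without intron 16 was not tested. Outside the open sites the numbers were 250 and 429, a ratio of -0.11 (-0.34 to 0.12), or -0.37 (-0.62 to -0.13) without the barcode, which held 42 of its 43 Unc5d fragments there. The promoter alone held 87 and 168 fragments, -0.27 (-0.67 to 0.10), an interval that included 0. The difference between the inside and outside ratios was not tested.

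Over the whole gene, the other 9 genes differed less by CD357. Neo1 held 1074 and 1831 fragments, 72.3 and 77.4 FPM, a log2 ratio of -0.10 (-0.21 to 0.01), and its promoter, at 20.9 and 24.4 FPM, a ratio of -0.22 (-0.42 to -0.02). Of the receptors, Unc5c was at 0.07 (-0.05 to 0.19), Dcc at 0.03 (-0.12 to 0.19), or -0.03 (-0.19 to 0.12) without the barcode that stood apart, Unc5a at -0.01 (-0.12 to 0.10) and Unc5b at -0.06 (-0.15 to 0.03). Their intervals all included 0. The ligands lay between Rgmb at -0.08 (-0.19 to 0.03) and Bmp6 at 0.03 (-0.16 to 0.21), with Ntn1 at -0.01 (-0.12 to 0.09) and Rgma at -0.05 (-0.18 to 0.08). Over the 10 genes 3 ratios were above 0 and 7 below, or 2 and 8 without the barcode, where Dcc changed sides, with a median of -0.03 in all kept cells, beside 0.00 over all genes. Excess overlap of fragments marked 10.5% of CD357-high and 5.34% of CD357-low cells, and without them the ratio was -0.48 (-0.67 to -0.29) for Unc5d and -0.10 (-0.21 to 0.01) for Neo1. That setting also leaves out the barcode that stood apart and splits the cells at a median of 2 in place of 3, so more than the overlap cells changed. By promoter alone, in all kept cells, other members had ratios near the size of Neo1's. Rgmb was at -0.24 (-0.48 to -0.0003), Unc5c at -0.24 (-0.60 to 0.11), Rgma at -0.19 (-0.50 to 0.10), Unc5a at -0.07 and Unc5b at -0.05. On the other side were Ntn1 at 0.20 (-0.18 to 0.57), Bmp6 at 0.28 (-0.02 to 0.57) and Dcc at 0.39 (-0.60 to 1.35), from few fragments.

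**Figure D3:**
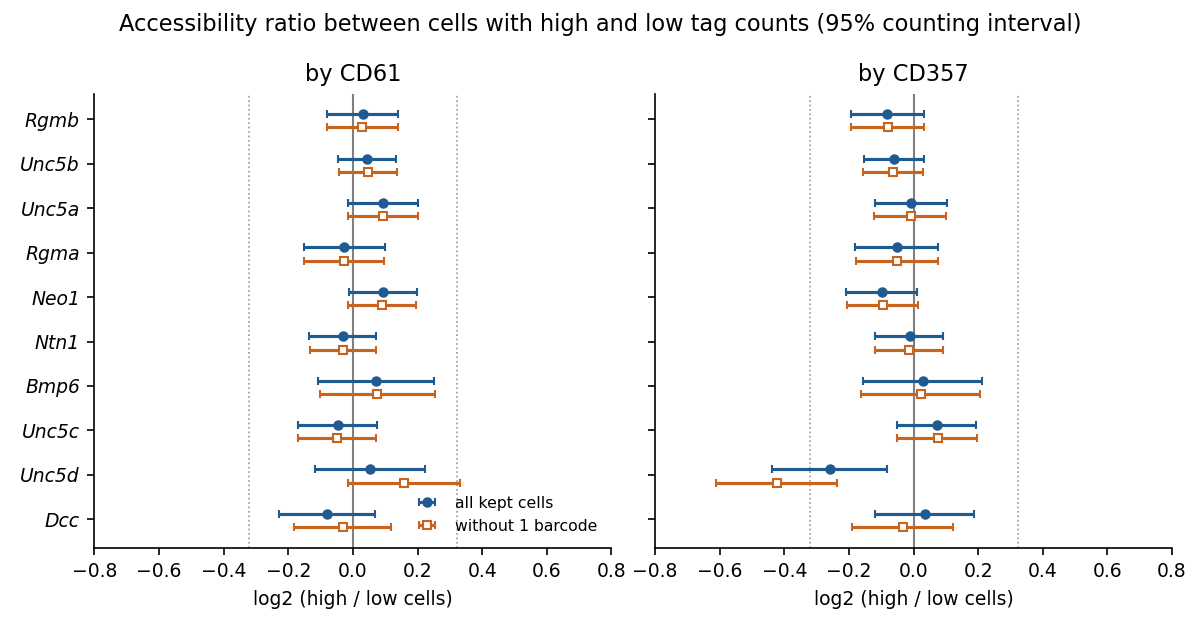
Log2 ratios of accessibility, high over low cells, for the 10 genes by CD61 and by CD357, with 95% counting intervals, with all cells and without the barcode that stood apart. Dotted lines mark log2 ratios of 0.32 and -0.32. Only Unc5d by CD357 without that barcode (-0.42) passes a line.

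Single sites gave the largest ratio. Of the 46 member sites 36 had at least 100 fragments. By CD61, 7 of these were past the threshold of 0.32, against 11.3% of all such sites. With cells at the median count placed on the high side, 4 of 36 were past it, against 12.8%, near the background. Of the 7 sites, 5 were higher, against 6.45% of all sites, and 2 lower, against 4.83%, and none was past 2-fold, against 0.0094%. The higher sites were in Neo1 (sites in intron 7, intron 1 and exon 9), Unc5d (intron 16) and Ntn1 (intron 4), led by Unc5d at 0.52 (-0.03 to 1.08) and Neo1 intron 7 at 0.51 (0.09 to 0.94). The lower ones were another Neo1 site, in exon 7, at -0.39 (-0.93 to 0.13) and Rgmb intron 2 at -0.44 (-1.04 to 0.14), so the sites of Neo1 did not all lie on 1 side. The Neo1 intron 7 site held 111 fragments in CD61-high and 86 in CD61-low cells. Its ratio turned to -1.93 (-4.09 to -0.44) among the 363 cells with at least 50 tags, where the CD61 split also moved, to a median count of 5. By CD357, 4 of the 36 were past the threshold, against 11.9%, so the share of member sites was near the background. Of them 2 were higher, against 5.42%, and 2 lower, against 6.46%. The lower ones were Unc5d intron 16 and Rgmb exon 3, with 34 and 86 fragments and a ratio of -0.66 (-1.29 to -0.08). The higher ones were an Unc5a intron 1 site 21640 bp from the start at 0.42 (-0.07 to 0.90) and Unc5b exon 5 at 0.39 (-0.13 to 0.90). Both intervals included 0. The stronger Unc5a intron 1 site, 39040 bp from the start, was at -0.03 (-0.27 to 0.20).

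The site in Unc5d intron 16 held 24 fragments in CD357-high and 91 in CD357-low cells, or 1.62 and 3.85 FPM. Its log2 ratio was -1.23 (-1.97 to -0.59), the only member site of at least 100 fragments past 2-fold by either antigen, where 0.047% of all sites with at least 100 fragments were past it in either direction and 0.0446% in this one. It was the third lowest of 42555 sites, and its ratio rests on 115 fragments in all. Ratios spread more at such low counts: the lowest was -1.34 among sites of 100 to 150 fragments and -0.38 among those of 1000 or more. Intronic sites of these genes were among the values used to choose them, so this place describes the site and supports nothing by itself. Below 100 fragments, and chosen here after its values were seen, a site in Unc5c intron 13 with 67 fragments was at 1.06 (0.32 to 1.87) by CD61, from 44 and 23 fragments, and at 0.80 (0.07 to 1.54) by CD357, from 35 and 32. With the cells at a count of 3 placed on the high side, the ratio of the Unc5d site was -0.95, and without the cells with an excess of overlapping fragments, where the median count itself was 2 and not 3, it was -0.82. Its ratio was past 0.32 in the same direction in each of its 10 alternatives, counted without the minimum of 100 fragments. With at least 50 tags the site fell below that minimum.

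**Figure D4:**
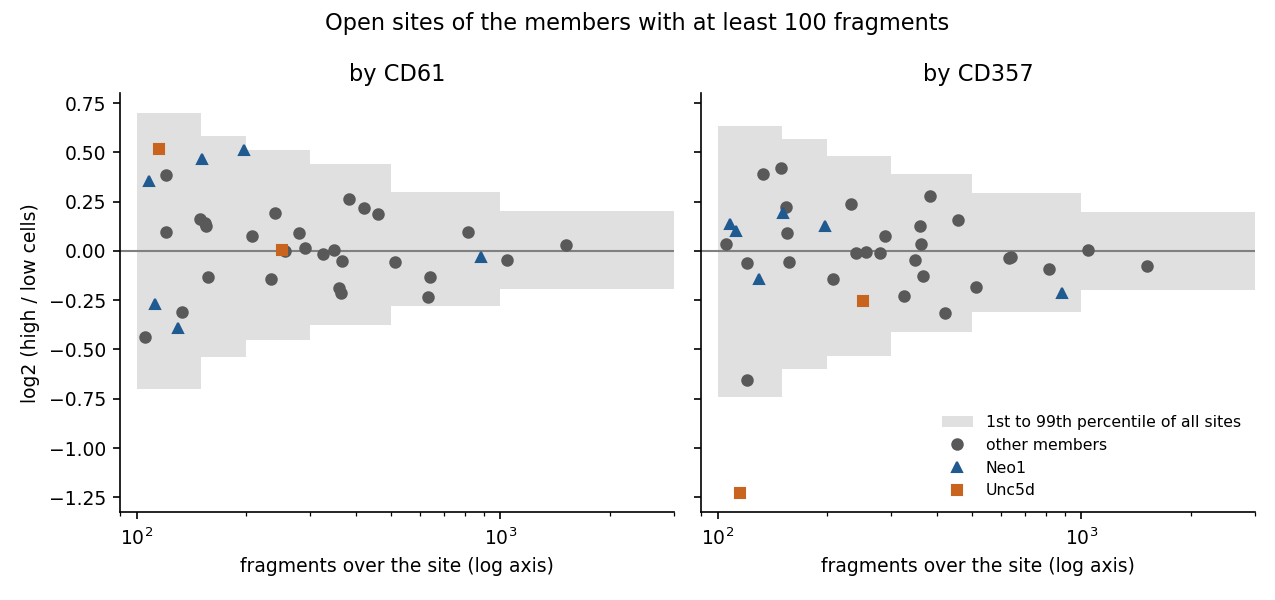
Log2 ratio, high over low cells, against fragments (log axis) for the member open sites with at least 100 fragments, by CD61 and by CD357. The grey band spans the 1st to 99th percentile of all sites in that range of fragment counts, and the Unc5d intron 16 site (-1.23 by CD357) lies below it.

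Over finer classes of CD357 count, accessibility of the Unc5d intron 16 site went down from class to class. It was 4.12 FPM in the 534 cells with a count of 0, 3.91 in the 1277 cells with 1 to 2 and 3.35 in the 453 cells with 3. In cells with higher counts it was 1.91 (4 to 5), 1.5 (6 to 9) and 0.657 (10 to 24). The last value came from 1 fragment in 135 cells and the first from 23, so neighbouring classes were not distinct within counting error. The whole gene was less even, from 35.1 FPM at a count of 0 to 18.4 in the highest class, with 29.4 in the class of 4 to 5 that became 23.7 without the barcode. Neo1 showed 87.7 at a count of 0 and between 69.7 and 77.5 in the other classes. By CD61 count the Unc5d site was at 0.826 FPM in the 232 cells with none, from 2 fragments (0.100 to 2.99), and between 2.69 and 3.76 in the other classes, some of which lie within that interval. The whole Unc5d gene was lowest there, at 17.8, against 29.1 to 34.4 in the other classes, or 27.1 to 34.4 without the barcode. These classes use the same cells, fragments and tag counts as the ratios above and add no independent evidence.

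**Figure D5:**
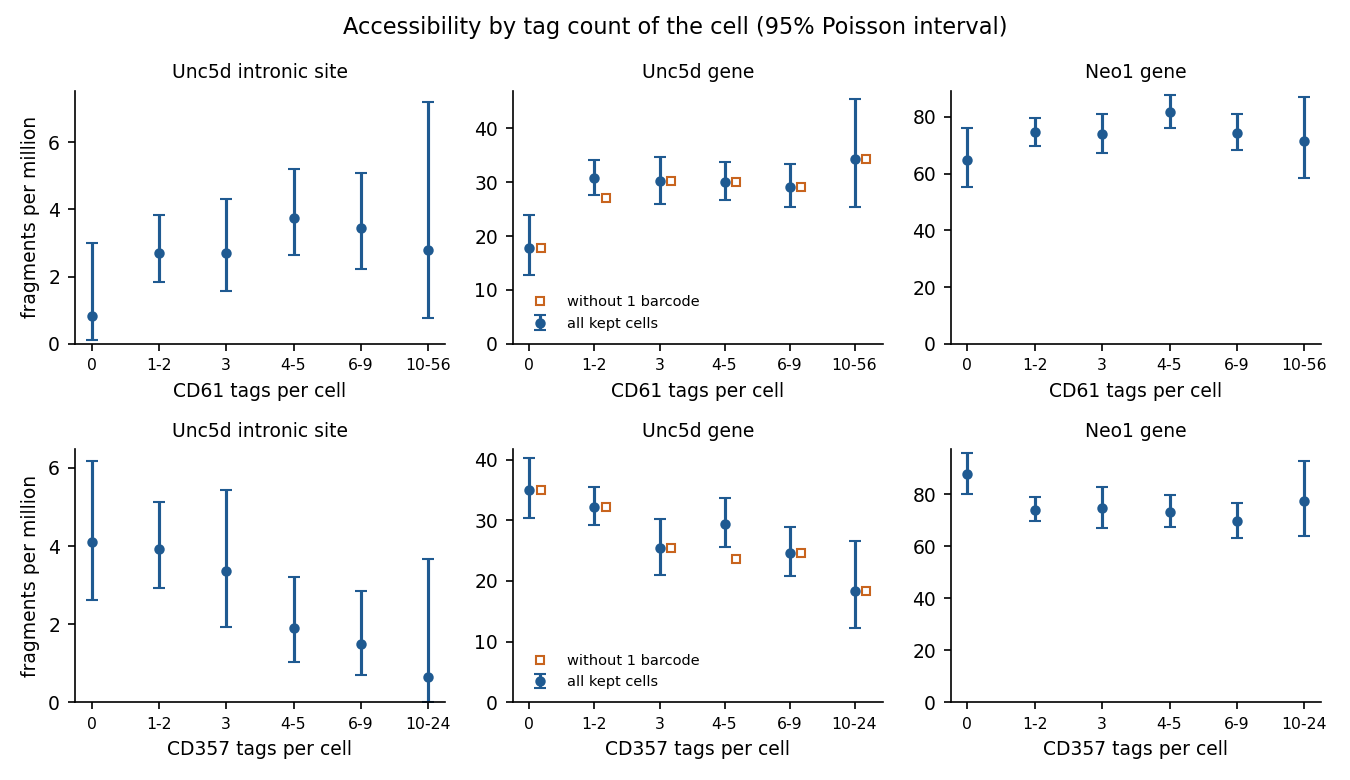
FPM in classes of CD61 count (top) and CD357 count (bottom) for the Unc5d intron 16 site, the Unc5d gene and the Neo1 gene, with 95% counting intervals and, for the Unc5d gene, open squares without the barcode that stood apart. The Unc5d site goes from 4.12 to 0.657 along CD357.

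Seen from the other side, the 102 cells with a fragment at the Unc5d site carried a mean of 2.37 CD357 tags (2.08 to 2.69), against 3.28 (3.22 to 3.34) in the 3527 cells without. Their mean CD61 count was 4.54 (4.14 to 4.97), against 3.74 (3.68 to 3.81). Of the other antigens used for subtypes, P2X7R was at 0.333 tags (0.231 to 0.466) with the site and 0.569 (0.545 to 0.595) without, while CD274 was at 21.4 and 21.3 and CD27 at 0.912 and 0.910. The study left P2X7R out of its final panel. Outside these antigens, cells with the site also had less CD68, at 0.0392 (0.0107 to 0.100) against 0.114 (0.103 to 0.126). They had more MERTK, at 0.892 (0.718 to 1.10) against 0.722 (0.695 to 0.751), with overlapping intervals. These cells had slightly more fragments, with a median of 11091 against 10268, and tag counts are not Poisson across cells, so these intervals are too narrow. The CD61 and CD357 means re-use the fragments and tag counts of the ratios and add no independent evidence.

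High CD61 together with low CD357 is the part of the sort in which the study places PLT-HSCs, here without its gates on other antigens. In the 1003 such cells against the 673 cells with low CD61 and high CD357, Neo1 held 851 and 498 fragments, or 80.7 and 70.1 FPM, a log2 ratio of 0.20 (0.04 to 0.37). This was at the 95.7th percentile of genes with at least 1000 fragments. Unc5d held 364 and 205 fragments, 34.5 and 28.9 FPM, a ratio of 0.26 (0.01 to 0.51), or 0.59 (0.32 to 0.87) without the barcode. Its intron 16 site held 50 and 9 fragments, a ratio of 1.84 (0.87 to 3.11). Unc5b was at 0.14 (0.00 to 0.28), Unc5c at -0.12 (-0.30 to 0.06) and Dcc at -0.15 (-0.37 to 0.07), or -0.02 (-0.24 to 0.21) without the barcode. In the cells high for both antigens and in those low for both, Neo1 was at 74.3 and 74.8 FPM. Unc5d was at 24.0 and 29.1 FPM there, in all kept cells. These corners use the same cells as the comparisons by each antigen and add no independent evidence. Of the 1003 and 673 cells, 7.38% and 7.13% had an excess of overlapping fragments, a near-equal share.

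Across the 3629 cells, genes most like Neo1 in accessibility after allowing for depth were Catspere2 and Kcnb2 (correlations of 0.071 each), Pdgfc (0.064), Clec4g (0.060) and Gm10614 (0.058), all on other chromosomes. These are weak values in sparse counts and are no finding. For Unc5d the highest were Lsamp (0.249), Ntm (0.244), Slc2a9 (0.219), Fstl5 (0.213) and Magi2 (0.199). Without the barcode that stood apart, none of these remained in the top 5, which became Peg3 (0.111), Dok5 (0.091), Usp29 (0.088), Npas3 (0.087) and Ryr2 (0.086). The first 5 genes for Unc5d thus rested on 1 barcode. Peg3 and Ryr2 were also in the top 5 without excess overlaps (0.106 and 0.090) and in open sites alone (0.076 and 0.086), again weak values. Open sites alone compared 19574 genes in place of 12895. Among the 45 pairs of members, correlations went from -0.029 to 0.151, the highest being Dcc with Unc5d. Without that barcode the highest was 0.031.

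The rest of the pathway gave no ratio past the threshold by either antigen, in any of 6 gene lists, where 1.46% of all genes were past it by CD61 and 1.76% by CD357. Other netrin family ligands (6 genes) had a median level of 1.19 FPKM, with Ntn3 the highest at 5.76 and Ntng1 the lowest at 0.0715. Other netrin or RGM co-receptors (9 genes, 8 with enough fragments for ratios) had a median of 0.909, from Adora2b, an adenosine receptor, at 1.71 to Dscam, a cell adhesion receptor, at 0.193. The BMP arm of 18 genes for ligands, receptors, SMADs and ID proteins had a median of 1.36 and 12 of 18 above the protein-coding median, from Id2, a transcriptional inhibitor induced by BMPs, at 8.80 to the receptor gene Bmpr1b at 0.0918. The 18 genes downstream of netrin and RGM receptors had a median of 1.38 and also 12 above, from Lmo4 at 4.22 to Dock1, an activator of Rac, at 0.152. Other guidance receptors (18 genes) had a median of 0.906, with Robo3 at 3.47 and Robo2 at 0.0781 as the extremes, and other guidance ligands (14 genes) a median of 1.08, with Efna1 at 3.21 and Sema3c at 0.0651. The median ratios of these lists lay between -0.02 and 0.04 by CD61 and between -0.01 and 0.02 by CD357.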

How the data were processed

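Chromatin accessibility, mRNA and antibody tags were measured in 1 pool of LT-HSCs, with 1 library of each kind. Per the file headers and labels, the authors processed ATAC with Cell Ranger ARC 2.0.2 and its mm10 reference, which corrects fragment ends for transposase binding and merges duplicates and counted antibody tags with CITE-seq-Count (version: not given in the sources used here). All deposited values are raw counts, of fragments and RNA UMIs per barcode and of tags per cell. The mRNA matrix was not analysed here.

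Barcodes with at least 10 tags were kept (3629 of 3724). Depth was 38498362 nuclear fragments. Fragments were counted over each gene of GENCODE M21 with 2000 bp upstream, over promoters (1000 bp on each side of the start) and over open sites, which were found in 500 bp windows in steps of 100 bp. Levels (FPKM) were fragments per kb per 1000000 nuclear fragments with exact Poisson intervals. For log2 ratios 0.5 was added to both counts, with exact conditional binomial intervals. Ratios past a log2 value of 0.32 in either direction were counted among genes with at least 200 fragments and sites with at least 100. Correlations across cells used counts over their expectation from depth, for 12895 genes with at least 1000 fragments. In open sites alone 19574 genes were compared, some of them with fewer fragments. Cells with an excess of overlapping fragments had more sites covered by at least 3 fragments of up to 900 bp than a Poisson expectation allows (adjusted value below 0.01).

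The members and lists were chosen with earlier results of these data known. Genes named were the 10 members, the 5 genes most like Neo1 and Unc5d on other chromosomes, and the highest and lowest gene of each pathway list, with any past that threshold. Sites and antigens named beyond these were chosen after their values were seen. Sequences came from RefSeq GRCm38.p6, the same build as mm10. All 21 chromosomes held the last fragment end within their sequence. None is printed for Dcc. Alternatives changed the cells, the region, the scaling, the split of the antibody counts and the background of open sites. The alternatives without the single barcode, and with cells at the median count placed on the high side, were chosen after seeing the data, as were the joint split by CD61 and CD357 and the classes of count. Scripts were tested on simulated data and used Python 3.11.15, numpy 2.4.6, scipy 1.17.1, pandas 2.3.3, numba 0.67.0, statsmodels 0.14.6 and matplotlib 3.10.9.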

Additional observations from a re-analysis of the deposited data

How the results depend on the processing

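No paired analysis was possible because each assay had 1 library of 1 pool, with no replicate. Levels and ratios were taken as unchanged within the counting interval of the reported value, counts within 1.5 times of it and correlations within a fixed margin. The Unc5d intron 16 site was taken as unchanged where it was called again. Of 490 values and counts recomputed, 385 were unchanged. For the levels of single members this was 49 of 100, and the 51 that moved did so in the promoter, the gene body or open sites alone, with short fragments, with promoter scaling or with at least 50 tags. Of the values past the threshold 1 changed sign: the Neo1 intron 7 site by CD61 was -1.93 in place of 0.51 in the 363 cells with at least 50 tags. Unc5d by CD357 was below 0 in each of 14 alternatives (-0.49 to -0.17) and past the threshold in 6 of them. It was -0.46 without the 5% of cells with most fragments and -0.48 without cells with an excess of overlapping fragments. In open sites alone, the intron 16 site among them, it was -0.49. Splits by centred log ratio and by residual counts, which allow for the total tags of a cell, had 0 of 10 genes past the threshold by CD357. Of all genes, 1.59% and 1.75% were past it there. Of the 10 genes, 1 instead of 0 was past the threshold by CD357 with every barcode, without the deepest 5%, without excess overlaps, in open sites alone, without the barcode that stood apart and with cells at the median placed high (Unc5d in each), and with fragments under 150 bp alone (Ntn1, -0.35), while 1.62% to 3.04% of all genes were past it in these settings. In these first 3 settings the CD357 median was 2 in place of 3, so the groups of cells changed as well. Neo1 by CD357 was -0.22 for the promoter and -0.26 with fragments under 150 bp. By CD61, Neo1 was -0.14 and Unc5d -0.20 in the 363 cells with at least 50 tags, and the Neo1 promoter was -0.029. Neo1 by CD61 was above 0 in 12 of 14 alternatives and Unc5d in 13 of 14. The Unc5d intron 16 site by CD357 was -2.15 in those 363 cells, where it held fewer than the 100 fragments required of sites. That value rests on few fragments. Member sites past the threshold by CD61 were 0 of 2 tested with at least 50 tags (17.9% of all sites), 4 of 34 without the deepest 5% (11.6%), 4 of 33 without excess overlaps (11.6%), 3 of 27 between upper and lower quartiles (13.0%) and 4 of 36 with cells at the median placed high (12.8%), instead of 7 of 36 (11.3%). By CD357 they were 0 of 2 with at least 50 tags (17.7%) and 1 of 23 between quartiles (13.4%), instead of 4 of 36 (11.9%). With at least 50 tags fewer cells entered and both medians were 5 in place of 3. Open sites numbered 25 at 8 times the background, instead of 46. The highest correlation for Unc5d, 0.249, was 0.111 without the single barcode, 0.106 without excess overlaps and 0.0859 in open sites alone, where more genes were compared. With no replicate, whether any ratio would recur in another pool cannot be told from these data.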
